A study of Mus musculus with 6 samples.

Results

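Muscle satellite cells, which are resident stem cells that rebuild injured fibres, carry a set of surface proteins through which they are recognised, held in place and signalled to. The 9 genes described here encode such proteins: the adhesion molecules Vcam1 and Ncam1, the receptors Met, Calcr and Tek, the caveolar protein Cav1, the sialomucin Cd34, and the syndecans Sdc3 and Sdc4. They were measured by every non-control array probe whose gene name is exactly one of these symbols, which gave 13 of the 55681 probes and 9 of the 36406 names on the array. Satellite cells of adult mice (6 months, n = 3) were compared with those of young mice (n = 3, of which replicates 1 and 3 were from mice of 3 months and replicate 2 from mice of 2 months). All mice were male, of strain C57BL/6, with no treatment or engineered allele named in the labels, and the study's stated interest was how satellite cell expression changes with age in undisturbed muscle. Cells were sorted as positive for integrin alpha7 and CD34 and negative for CD31, CD45, CD11b and Sca1. RNA of these small populations was amplified across the whole transcriptome and hybridised in 1 colour, Cy3, to Agilent arrays. The samples are labelled as biological replicates, with the number of mice behind each not given, so the p-values below measure the spread between these samples.

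In resting muscle the satellite cell lies between the myofibre and the basal lamina and stays out of the cell cycle. Calcitonin receptor and TIE2, the product of Tek, receive signals associated with quiescence, and MET receives hepatocyte growth factor, which draws the cells towards activation. Syndecans carry heparan sulphate chains that hold growth factors at the surface, and VCAM1, NCAM1 and caveolin-1 belong to cell adhesion and membrane organisation.

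Values are log2 processed signals relative to the 75th percentile of each array, so 0 is a probe at that percentile and a step of 1 is a doubling. A difference is adult minus young, given with its standard error, and a probe passed at a Benjamini-Hochberg adjusted p under 0.05 over all 48379 fitted probes in limma. The arrays had 47585 to 49965 probes well above background in adult samples and 41531 to 45929 in young samples, and no spot was saturated. All 6 arrays lay on 1 slide with 1 scan time, so neither could be a batch, and the number of arrays limits the precision. All 13 probes were well above background on all 6 arrays. Probes differ in their yield of signal, so levels of different probes are not ranked, and signals summed over a list of genes are compared only between arrays.

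The genes with the clearest differences are read by the probes below, shown because 2 of these genes have probes that read different stretches of their transcripts. Sequences and coordinates are those of the deposited files (mouse build mm9), written 5′ to 3′ as deposited, and a probe shown by 30 bases is its first 30. Whether a position is coding or untranslated was not assigned here, for lack of a gene annotation of that build. Ncam1 runs on the minus strand of chromosome 9. Probe A_55_P2028942 at chr9:49351182-49351241 is listed under 3 transcript records, A_55_P2050602 at chr9:49323381-49323440 under 1 of them, and A_51_P380309 at chr9:49310320-49310379 under the other two. In order along the transcript, the probes stand 27741 and then 13001 bases apart in the genome. Vcam1 is also on the minus strand, with A_52_P520495 at chr3:115828953-115829012 and A_51_P210956 at chr3:115813216-115813275. Met at chr6:17503299-17503358 and Cav1 at chr6:17289414-17289473 lie on the plus strand, and Calcr at chr6:3635940-3635999 on the minus strand.
Ncam1 A_55_P2028942: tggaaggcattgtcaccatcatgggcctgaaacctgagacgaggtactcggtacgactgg
Ncam1 A_55_P2050602: ctgtgtattagtacagtccgtacaccatgt
Ncam1 A_51_P380309: actttttactgagtgaaacatcaacaccac
Vcam1 A_52_P520495: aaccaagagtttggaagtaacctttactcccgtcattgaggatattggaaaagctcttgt
Vcam1 A_51_P210956: tatatttttataggcaaatggtaaagaggt
Met A_51_P103929: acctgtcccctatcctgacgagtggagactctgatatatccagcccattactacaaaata
Cav1 A_55_P2126662: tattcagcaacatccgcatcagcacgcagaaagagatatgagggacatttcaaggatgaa
Calcr A_52_P469789: ggacggattgaaggaaggatgttttttcaa

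By the probes that passed, adult satellite cells had lower signal for NCAM1, VCAM1 and MET transcripts, by 1.57- to 1.92-fold, than young cells. Of the 13 probes, 4 passed as lower in adult, none passed as higher and 9 did not pass. An unadjusted p under 0.05 was found for 7 of the 13, all with a lower adult mean. The 4 probes belong to 3 genes: 2 read Ncam1, 1 reads Vcam1 and 1 reads Met. A further probe of Ncam1 and a further probe of Vcam1 did not pass, and none of the 4 passed with any 1 sample left out. Among all fitted probes 6.4% were called lower in adult and 17.1% higher. Bright probes were called lower more often: of the 12696 probes whose mean level fell within the range of the 13, 15.7% were called lower. In bulk samples such as these, fewer cells of a type and less RNA per cell cannot be told apart.

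**Figure D1:**
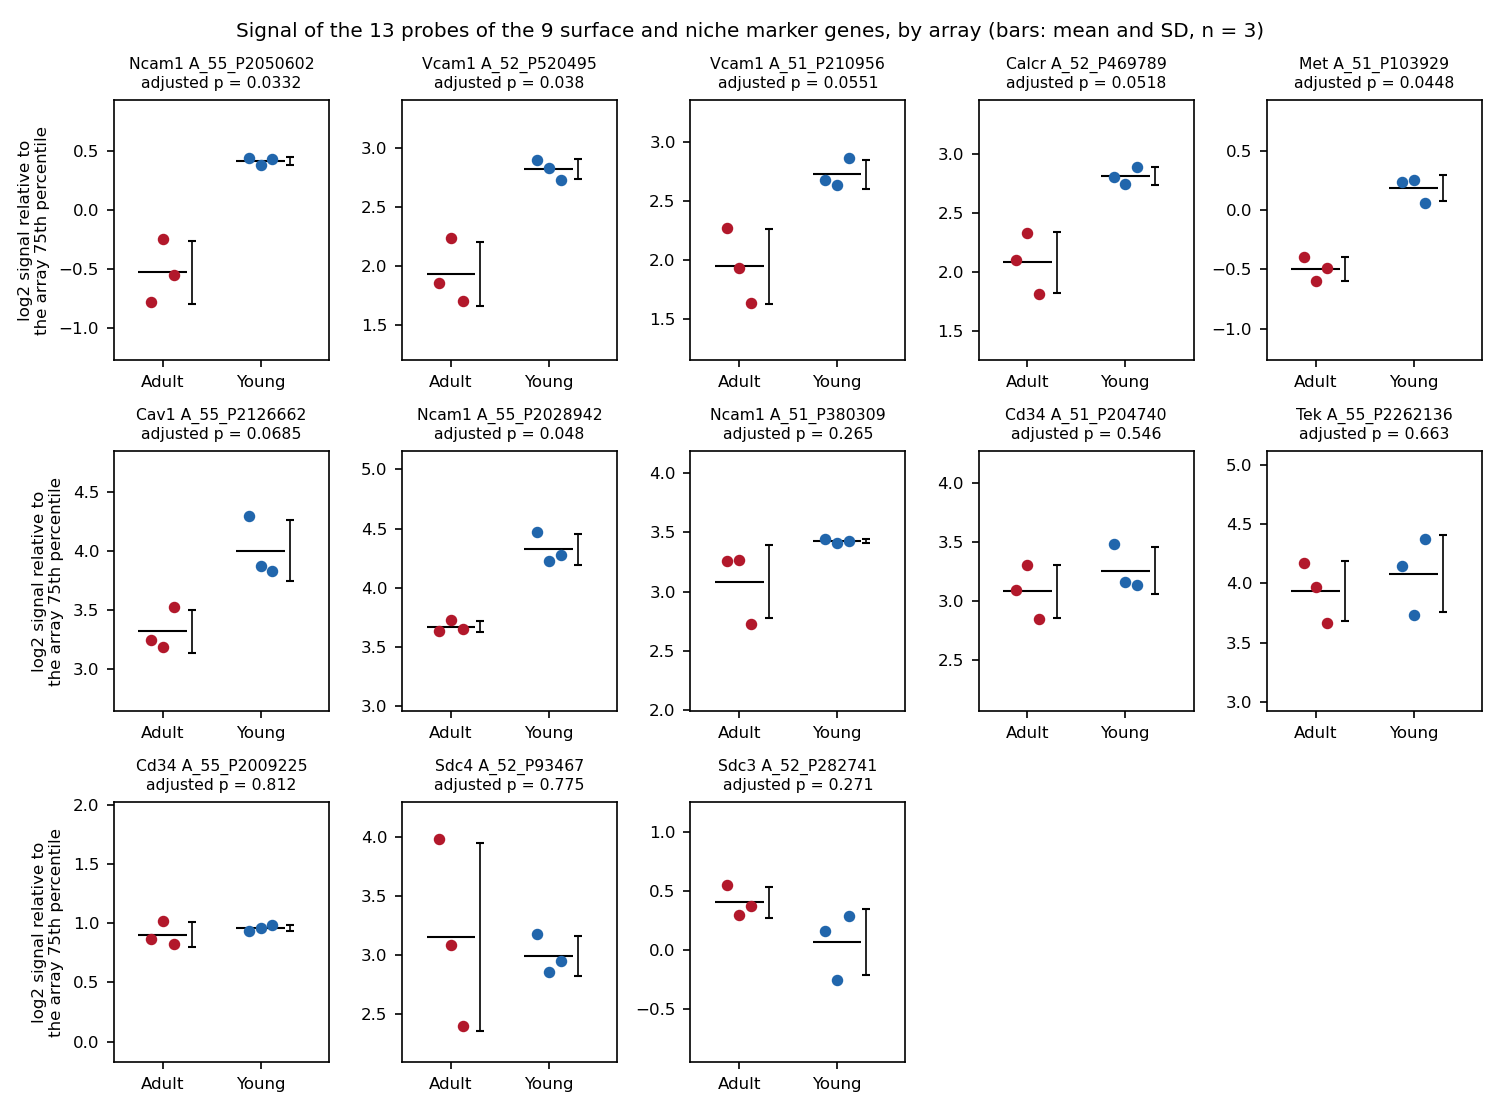
Log2 signal relative to the array 75th percentile (vertical axes, each spanning the same length) for the 13 probes, with 1 point per array, adult in red on the left and young in blue on the right; lines are means and bars SD, n = 3 each. In 8 panels all adult points lie below all young points, in the Sdc3 panel they lie above, and in the panels of Cd34, Tek and Sdc4 they overlap.

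Ncam1 encodes the neural cell adhesion molecule, made in several spliced forms and carried by muscle precursor cells. Its probe A_55_P2050602 read -0.78, -0.25 and -0.55 in the adult samples, against 0.44, 0.38 and 0.43 in the young samples. No adult array reached the lowest young one, and the young arrays lay within 0.06 of each other while the adult arrays spanned 0.53. The difference was -0.94 ± 0.21 (adjusted p = 0.0332), a 1.92-fold lower signal with a 95% interval of -1.46 to -0.43 on the log2 scale. Probe A_55_P2028942, listed under all 3 transcript records, read 3.63, 3.72 and 3.65 in adult samples and 4.47, 4.22 and 4.28 in young samples. Both groups were tight here, again without overlap, and the difference was -0.65 ± 0.18 (adjusted p = 0.048). Probe A_51_P380309, at the far end of the gene, read 3.26, 3.27 and 2.73 in adult samples and 3.45, 3.41 and 3.42 in young samples. Adult replicate 3 was the low array of that probe, and its difference of -0.34 ± 0.22 did not pass (adjusted p = 0.265).

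Whether the Ncam1 probes differ from each other in their change was tested on the difference between probes within each array. Probe A_55_P2050602 minus A_51_P380309 averaged -3.61 ± 0.39 in adult samples and -3.01 ± 0.02 in young samples (SD, n = 3 each). The adult minus young difference of these was -0.60, with no overlap, at an exact two-sided permutation p of 0.1, the smallest p that 3 against 3 can give. Adjusted over the 5 probe pairs of Ncam1, Vcam1 and Cd34, this p was 0.5 (exact test). For the other two Ncam1 pairs, the exact p was 0.2 and 0.3, and with 3 arrays a group none of these comparisons can reach the threshold.

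Vcam1 encodes an adhesion molecule bound by integrins of the alpha4 family and is a surface marker by which resting satellite cells are sorted. Probe A_52_P520495 read 1.86, 2.24 and 1.71 in adult samples, against 2.90, 2.83 and 2.73 in young samples. Every adult array lay below every young array, and the difference was -0.89 ± 0.21 (adjusted p = 0.038), or 1.85-fold lower in adult. Probe A_51_P210956 read 2.27, 1.93 and 1.64 in adult samples and 2.68, 2.64 and 2.87 in young samples. Its groups did not overlap either, and its difference of -0.78 ± 0.23 missed the threshold narrowly (adjusted p = 0.0551). The difference between both Vcam1 probes was 0.01 ± 0.36 in adult samples and -0.09 ± 0.20 in young samples (SD, n = 3 each, exact permutation p = 0.7).

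Met encodes the receptor tyrosine kinase for hepatocyte growth factor. It has 1 probe, printed as 10 spots on each array, which makes it the member with the most spots behind each value. It read -0.39, -0.60 and -0.49 in adult samples, against 0.24, 0.26 and 0.07 in young samples. Both groups were about equally tight and lay well apart, with a difference of -0.68 ± 0.18 (adjusted p = 0.0448), or 1.6-fold lower in adult.

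Calcr, the calcitonin receptor gene, read 2.10, 2.33 and 1.82 in adult samples and 2.81, 2.74 and 2.89 in young samples. The groups did not overlap, but the difference of -0.73 ± 0.21 did not pass (adjusted p = 0.0518). Cav1 encodes caveolin-1, the coat protein of caveolae, which are small pits of the cell membrane. It read 3.25, 3.19 and 3.53 in adult samples and 4.30, 3.87 and 3.83 in young samples. Young replicate 1 was the high array, the groups did not overlap, and the difference of -0.68 ± 0.22 did not pass (adjusted p = 0.0685). For both genes the unadjusted 95% interval lay below 0, at -1.24 to -0.22 for Calcr and -1.22 to -0.14 for Cav1.

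Cd34 encodes the protein on which the cells were selected, so its transcript was measured in cells already chosen for the protein in both groups. Probe A_51_P204740 averaged 3.08 ± 0.23 in adult samples and 3.26 ± 0.20 in young samples. Probe A_55_P2009225 averaged 0.90 ± 0.10 in adult samples and 0.96 ± 0.03 in young samples (SD, n = 3 each for both). Adult and young arrays overlapped for both, with differences of -0.18 ± 0.22 (adjusted p = 0.546) and -0.06 ± 0.18 (adjusted p = 0.812). The intervals, -0.71 to 0.36 and -0.48 to 0.37, still hold differences as large as some of those above.

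Tek encodes TIE2, the receptor for angiopoietins, and is also a gene of endothelial cells. It read 4.17, 3.97 and 3.66 in adult samples and 4.14, 3.73 and 4.37 in young samples. The groups overlapped, and the difference of -0.15 ± 0.26 did not pass (adjusted p = 0.663, interval -0.77 to 0.47). The lowest young array was replicate 2, the only one of 2 months. For the 4 passing probes, that array lay within 0.06 of the values of the arrays of 3 months or between them.

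The syndecans had the only positive differences. Sdc3, a co-receptor in growth factor and Notch signalling of satellite cells in mouse, read 0.55, 0.29 and 0.37 in adult samples and 0.17, -0.25 and 0.29 in young samples. The lowest adult array stood barely above the highest young array, and the difference of 0.34 ± 0.22 did not pass (adjusted p = 0.271). Sdc4, the co-receptor at focal adhesions, read 3.98, 3.08 and 2.40 in adult samples and 3.18, 2.85 and 2.95 in young samples. Its adult arrays spanned 1.58, the widest span of the 13 probes, and enclosed all young arrays. The difference of 0.16 ± 0.42 did not pass (adjusted p = 0.775), and it was -0.25 without adult replicate 1.

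**Figure D2:**
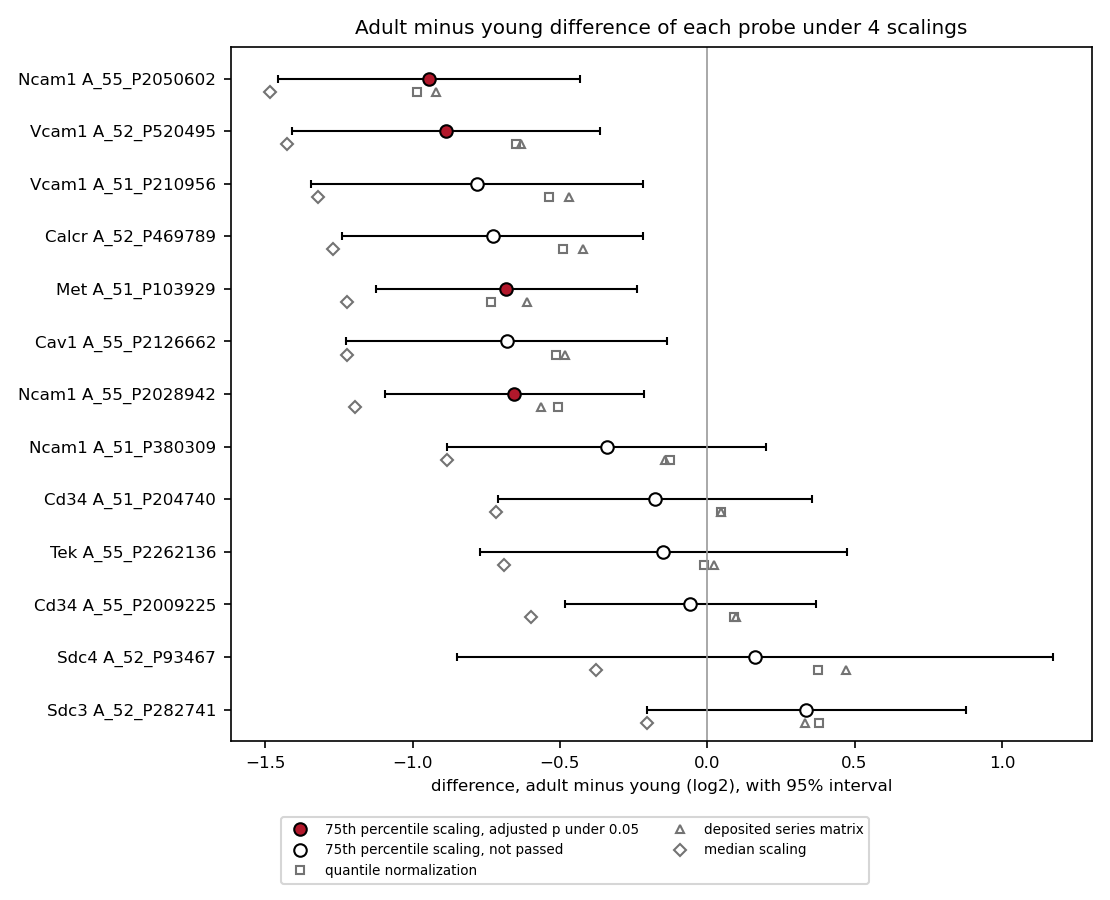
Difference in log2 signal, adult minus young (horizontal axis), for each of the 13 probes, with circles and 95% intervals (before adjustment for multiple testing) for the 75th percentile scaling, and open squares, triangles and diamonds for 3 other scalings. Filled circles passed at an adjusted p under 0.05, and the 8 uppermost probes lie left of 0 under every scaling drawn.

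In 8 of the 13 probes every adult array lay below every young array, which held for 20.5% of all fitted probes. The median difference of the 13 was -0.65, beside 0.29 for all fitted probes and -0.33 for those in the same range of levels. Relative to the median of all fitted probes, the 13 differences ran between -1.23 for Ncam1 A_55_P2050602 and 0.05 for Sdc3. The level mattered because dim probes tended to be higher in adult samples: the median difference was 1.95 in the dimmest of 20 equal level bins and -0.24 in the brightest. The 13 mean levels lay between -0.15 and 4.01, where the medians of the bins were negative.

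Other scalings moved the calls. Quantile normalization called 6.76% of all probes higher in adult and 7.85% lower, and median scaling 9.95% higher and 25.2% lower. Quantile normalization put the median of all probes at -0.12 and median scaling at -0.25. The number of the 13 called lower was 2 under quantile normalization, 8 under median scaling and 4 in the authors' deposited value table. Over the 6 other scalings, Ncam1 A_55_P2050602 passed in 6, Vcam1 A_52_P520495 and Met in 4 each, Ncam1 A_55_P2028942 in 3, and Calcr and Cav1 in 2 each. The differences of Ncam1, Vcam1, Met, Calcr and Cav1 were negative under all 6. Those of Cd34, Tek, Sdc3 and Sdc4 changed sign under at least 1. Leaving out any 1 of the 6 samples left none of the 13 past the threshold in limma, with 6 or 7 at an unadjusted p under 0.05.

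**Figure D3:**
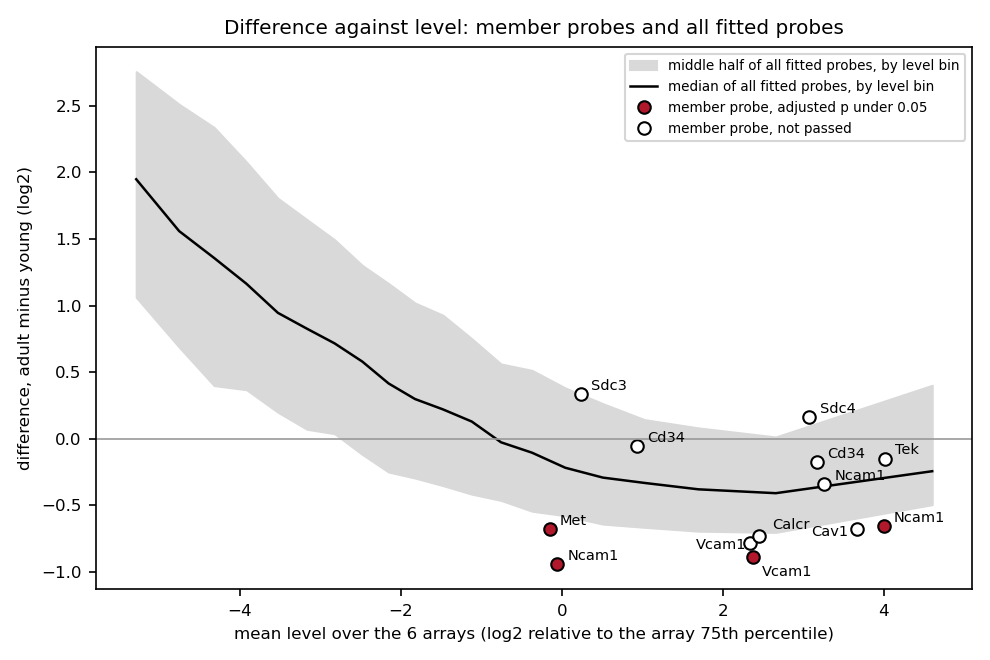
Difference in log2 signal, adult minus young (vertical axis), against the mean log2 level over the 6 arrays relative to the array 75th percentile (horizontal axis). The line and grey band are the median and middle 50% of all fitted probes in 20 level bins, and circles are the 13 member probes, filled where they passed; the 4 filled circles lie below the grey band.

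Each sample's description ends in a pair of numbers, the first of which, read here as an array row, was 1 or 2. Both groups had arrays in each, so differences were also taken within a row. Row 1 held adult replicate 1 with young replicates 1 and 2, and row 2 held adult replicates 2 and 3 with young replicate 3. The difference was -1.19 in row 1 and -0.83 in row 2 for Ncam1 A_55_P2050602, and -1.01 and -0.76 for Vcam1 A_52_P520495. For Met it was -0.64 and -0.61, for Calcr -0.67 and -0.81, and for Cav1 -0.84 and -0.47. For Tek, at 0.23 and -0.56, and for Sdc4, at 0.97 and -0.21, the rows had opposite signs. With the row as a term in limma, 1 of the 13 probes passed as lower.

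The 9 genes were then set beside genes that act with them, each represented by its brightest fitted probe, with differences again on the log2 scale. Among all 32094 genes so represented, 6.83% were lower in adult and 17.9% higher. Of 10 measured genes for the ligand and signalling of MET, none passed in limma and 1 had an unadjusted p under 0.05. That gene was Ptpn11, encoding the phosphatase SHP2, at -0.63 ± 0.23 (adjusted p = 0.0873). The adaptor gene Gab1, which MET signals through, differed by -0.45 ± 0.22 and did not pass. Over the 6 other scalings, 0 to 3 of the 10 were called lower and none higher. Of 6 genes of the angiopoietin and TIE system none passed either, with 1 at an unadjusted p under 0.05. It was Dok2, encoding an adaptor that binds TIE2, at 1.47 ± 0.43 (adjusted p = 0.0545). Dok2 was dim, with only 2 of the 3 young arrays measuring it above background, and read 0.35 ± 0.50 under quantile normalization. Over the other scalings, 0 to 1 of the 6 genes were called higher and none lower.

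Around the calcitonin receptor, 3 of 10 measured genes fell and 1 rose. Ramp2, which encodes an accessory protein of calcitonin-family receptors, averaged 0.81 ± 0.27 in adult samples and 1.95 ± 0.19 in young samples (difference -1.14, adjusted p = 0.0287). Its relative Ramp3 averaged -2.14 ± 0.55 in adult samples and -3.90 ± 0.15 in young samples (difference 1.76, adjusted p = 0.0254). Ramp3 was dim, at a level where probes in general tended to be higher in adult. Under quantile normalization it read 0.94 ± 0.34 and did not pass in limma (adjusted p = 0.106). Collagen V, a basal lamina collagen that in mouse is made by satellite cells and signals through the calcitonin receptor, has 3 chains on the list. Col5a1 averaged 3.95 ± 0.22 in adult samples and 5.003 ± 0.17 in young samples (difference -1.05, adjusted p = 0.0293). Col5a3 averaged 3.08 ± 0.28 in adult samples and 4.15 ± 0.11 in young samples (difference -1.07, adjusted p = 0.0302). Ramp2, Col5a1 and Col5a3 passed under all 6 other scalings and Ramp3 under 3, with 3 to 5 of the list lower and 0 to 3 higher. A dimmer probe of Calca, the gene of calcitonin, passed as higher at 2.66 ± 0.30 (adjusted p = 0.0137), but only 1 of the 3 young arrays measured it above background.

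Of 21 genes for other syndecans, glypicans and the making of heparan sulphate, 4 fell, 1 rose and 16 did not pass. Over the 6 other scalings these counts varied widely, with 1 to 12 lower and 0 to 2 higher: median scaling gave 12 lower, and cyclic loess 1 lower and 1 higher. The list's median was -0.49, beside 0.31 over all genes so represented and -0.33 over all fitted probes in the level range of the 13 member probes. The 4 genes that fell lay within that range of levels, where 15.7% of all probes were called lower. Gpc1, a membrane-anchored heparan sulphate proteoglycan, fell by 0.95 ± 0.21 (adjusted p = 0.0333). Ext1, which extends the chains, fell by 0.78 ± 0.19 (adjusted p = 0.0403), and Ndst1, which starts their sulphation, fell by 0.81 ± 0.20 (adjusted p = 0.0402). The 2-O-sulphotransferase gene Hs2st1 rose by 1.01 ± 0.24 (adjusted p = 0.0368). The fourth gene to fall was Sdcbp, encoding syntenin, which binds the tails of syndecans. The dimmer probes of Ndst1 and Sdcbp also had negative differences and did not pass. Of the 6 other scalings, Gpc1 passed in 4, Ext1 in 2, Ndst1 in 3 and Hs2st1 in 5.

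Among 10 measured partners of VCAM1 and NCAM1, 2 fell and 2 rose. Gfra1, a GDNF co-receptor that uses NCAM1 as a signalling partner, fell by 1.17 ± 0.18 (adjusted p = 0.0215). Itgb1, the beta1 integrin chain, fell by 0.88 ± 0.20 by its brighter probe (adjusted p = 0.034), while its dimmer probe read -0.27 ± 0.26 and did not pass. L1cam, an adhesion molecule related to NCAM1, averaged -1.48 ± 0.18 in adult samples and -3.40 ± 0.36 in young samples (difference 1.92, adjusted p = 0.0174). Itga4, the alpha chain of the VCAM1 receptor, also passed as higher, but only 1 of the 3 young arrays measured it above background. Fgfr1, a receptor that NCAM1 engages, did not pass by its brightest probe, at -0.28 ± 0.21, while a dimmer one passed as higher at 0.997 ± 0.23 (adjusted p = 0.0351). Of the 6 other scalings, Gfra1 and L1cam passed in 6 each, Itgb1 in 4 and Itga4 in 2, and the list had 1 to 3 genes lower and 1 to 3 higher.

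Of 11 genes of caveolae, 1 fell, 1 rose and 9 did not pass, and over the 6 other scalings 1 to 5 were lower and 0 to 2 higher. Cavin3, named Prkcdbp in the files, fell by 1.18 ± 0.21 (adjusted p = 0.0254), and Pacsin3, encoding a membrane-bending protein of muscle caveolae, rose by 1.34 ± 0.25 (adjusted p = 0.027). Of 3 measured relatives and partners of CD34, 2 did not pass, and the sialomucin gene Podxl2 fell by 1.15 ± 0.23 (adjusted p = 0.0297). Of 18 other surface proteins of satellite cells, 7 fell by their brightest probes and none rose, with 9 at an unadjusted p under 0.05. Itgb1 and Fgfr1 on this list were already counted among the partners of VCAM1 and NCAM1. Most of the 7 were bright, and among all probes in the level range of the 13 member probes 15.7% were called lower. Over the 6 other scalings, 3 to 12 were lower and 0 to 1 higher, with 4 lower under quantile normalization and 12 under median scaling. The Fgfr1 probe that passed as higher belongs to a gene of this list too. Those that fell were Itga7, Itgb1, Cdh15, Megf10, Notch1, Cd82 and Cd9. Cdh15, encoding M-cadherin, fell by 1.12 ± 0.29 (adjusted p = 0.0434), and Megf10, a receptor that regulates satellite cell proliferation in mouse, fell by 1.04 ± 0.21 (adjusted p = 0.03); they passed in 3 and 4 of the other scalings. The dimmer probes of Notch1 and Cd82 were negative and did not pass. Like the 13 probes, most of these calls did not survive the loss of a sample. None of Gpc1, Ext1, Hs2st1, Itgb1, Cdh15 or Megf10 passed with any 1 sample left out, and Gfra1, Col5a1, Col5a3, Ramp2, Podxl2 and Cavin3 passed in 1 of the 6 such fits each.

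**Figure D4:**
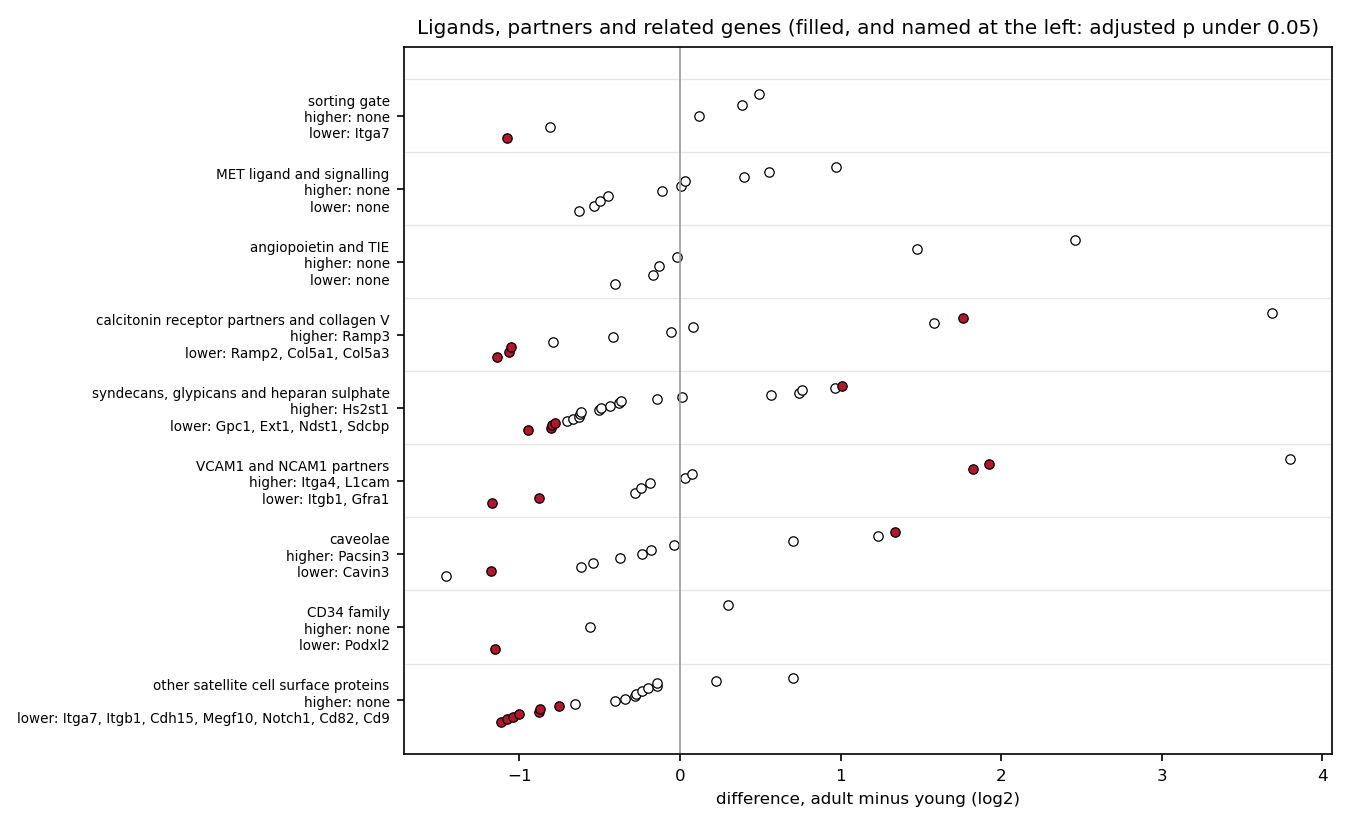
Difference in log2 signal, adult minus young (horizontal axis), of the genes in 9 lists of ligands, partners and related surface proteins, with 1 circle per gene by its brightest fitted probe. Filled circles passed at an adjusted p under 0.05, and their genes are named under each list's name; no gene passed in the lists for MET and for angiopoietins, and 7 passed, all as lower, among other satellite cell surface proteins.

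The sorted cells carried the transcripts that define satellite cells. All 8 markers on the list were well above background on all arrays, among them Pax7 at 3.41 ± 0.32 in adult samples and 3.75 ± 0.27 in young samples, which did not pass (adjusted p = 0.324). Their summed linear signal, in units of the array 75th percentile, was 115 to 152 in adult samples and 152 to 168 in young samples. All 8 differences were negative, and 2 of the 8 passed as lower in adult, against 1 to 3 over the 6 other scalings. The 2 are Itga7 and Cdh15, both already counted above. They lie in the level range of the 13 member probes, where 15.7% of all probes were called lower. Itga7, the positive sorting marker, was at 0.84 ± 0.22 in adult samples and 1.92 ± 0.05 in young samples (difference -1.08, adjusted p = 0.0263). Of the genes for the excluded proteins, none passed in limma by its brightest probe, and none of these probes had an unadjusted p under 0.05. Itgam, which encodes the excluded CD11b, averaged 8.57 ± 0.05 in adult samples and 8.18 ± 0.49 in young samples by its brightest probe. A dimmer Itgam probe, A_55_P1977926, was higher in adult by 1.46 ± 0.34 (adjusted p = 0.0361), and passed in 3 of the other scalings. The other dim one, A_55_P1977929, read 1.46 ± 0.49 without passing (adjusted p = 0.0705). The mean level over all arrays was 8.37 for the brightest Itgam probe, against -0.88 and -0.99 for the dimmer ones. The brightest probe thus stood far from the others of its gene, and the cause was not tested. Its level is therefore not read as the abundance of the CD11b transcript, and its difference alone does not show that transcript to be unchanged.

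Markers of other states and cell types moved as well, and their part in the differences of the 9 genes was not tested. Among all genes represented by their brightest probe, 6.83% were lower in adult and 17.9% higher, and dim probes in general tended to be higher. Of 5 markers of proliferation and differentiation, 3 fell and none rose, against 3 to 5 lower and none higher over the 6 other scalings. Their summed signal was 4.01 to 5.6 in adult samples and 12.5 to 14.8 in young samples, and Top2a was not above background on any adult array. Myog, the differentiation factor myogenin, averaged -3.79 ± 0.36 in adult samples and 1.43 ± 0.29 in young samples, with 1 probe. Mki67, of dividing cells, has 2 probes that disagree. The slightly brighter one averaged -2.48 ± 0.26 in adult samples and 1.21 ± 0.86 in young samples, and passed as lower. The other, A_51_P253803, differed by 0.07 ± 0.53 (adjusted p = 0.929) and changed sign under 4 of the 6 other scalings. Myofibre markers summed to 17.1 to 22.3 in adult samples and 31.8 to 47.9 in young samples, with 3 of 7 lower in adult. Over the other scalings 2 to 3 of them were lower and none was higher. Of 7 mural cell markers, 4 were higher and 1 was lower in adult, as under each of the 6 other scalings, with a median difference of 1.87. Their sums were 15.9 to 23.7 in adult samples and 15.5 to 21.1 in young samples. These sums do not show the rises, because the marker that fell, Acta2, was the brightest in young samples. Acta2 averaged 1.60 ± 0.19 in adult samples and 3.71 ± 0.16 in young samples. Adipocyte markers, most of them dim, summed to 3.15 to 4.22 in adult samples and 1.4 to 1.7 in young samples, with 4 of 5 higher. Over the other scalings 2 to 4 of them were higher and none was lower. Of 10 leukocyte markers 3 were higher in adult and none was lower, against 1 to 3 higher and none lower over the other scalings. Their sums were 379 to 403 in adult samples and 220 to 426 in young samples, dominated by the brightest Itgam probe. These sums therefore say little about the other leukocyte markers. All 10 differences were positive in the main fit, with a median of 0.52, against medians of -0.02 to 0.66 over the other scalings. Tyrobp differed by 5.76 ± 0.73 (adjusted p = 0.0168) and passed under all 6 other scalings. It was above background on all 3 adult arrays but not on any young array, so the size of its difference is uncertain. Csf1r did not pass by its brightest probe, at 0.37 ± 0.19 (adjusted p = 0.175). A dimmer Csf1r probe passed as higher at 1.35 ± 0.26 (adjusted p = 0.0278), and in 3 of the other scalings. Beside Vcam1, Cav1, Cd34 and Tek, which endothelial cells also express, 1 of 11 endothelial markers was higher in adult and none was lower, against 0 to 3 higher and 0 to 1 lower over the other scalings. Their sums overlapped, at 5.17 to 10.4 in adult samples and 6.55 to 10.5 in young samples, and Pecam1 averaged 0.25 ± 0.79 in adult samples and 1.06 ± 0.57 in young samples. Of 7 markers of fibro-adipogenic progenitors, which also carry Cd34, 1 was higher and none was lower, against 0 to 1 higher and 0 to 3 lower over the other scalings, with sums of 11.1 to 14.6 in adult samples and 17.1 to 20.8 in young samples. Of 5 markers of Schwann cells, which also express Ncam1, none passed in limma or had an unadjusted p under 0.05, and their sums were 3.58 to 15.9 in adult samples and 3.78 to 13.8 in young samples.

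Cav1 and Met are neighbours on chromosome 6, in the order Tes, Cav2, Cav1, Met, Capza2 and St7 in the RefSeq table of a later mouse build, and their probes lie 213825 bases apart in mm9. The neighbours were looked up after the values of Cav1 and Met were known. St7 was lower in adult, at -1.005 ± 0.26 (adjusted p = 0.0436), and Capza2, encoding an actin capping subunit, read -0.79 ± 0.23 without passing (adjusted p = 0.0535). On the other side, Tes had a positive difference of 0.13 ± 0.40 and did not pass in limma (adjusted p = 0.814). Cav2, which encodes the partner of caveolin-1, has 3 dim probes that did not move together. They read 0.70 ± 0.28, -1.08 ± 0.35 and -0.19 ± 0.25, and none passed.

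The genes whose pattern over the 6 arrays was most like that of Ncam1 A_55_P2050602 were Snap47, Wdr41 and Pin4, with Pearson r of 0.999, 0.9986 and 0.9983. For Sdc3 they were Maml3, Herc6 and Kif26b, with r of 0.9857, 0.984 and 0.9816. These are the highest of 18089 candidate probes, the 6 points share the split into adult and young arrays, and the values describe these arrays only.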

How the data were processed

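The authors deposited 1 scanner file per array, and per the file headers these were made with Agilent Feature Extraction 10.7.3.1. The deposited column used, the processed signal, is an intensity, background-corrected by that software. A deposited value table holds log2 values; they matched normexp background correction with offset 50 followed by quantile normalization to within 0.000106 and were used as an alternative. Control spots and outlier spots were left out, and spots of a probe were averaged. Each array's 75th percentile of log2 signal was subtracted. Probes well above background on at least 3 of 6 arrays, and with a value on each, were fitted (48379 of 55681) with limma 3.58.1 in R 4.3.3 (lmFit, eBayes), on group alone, with p-values adjusted by Benjamini-Hochberg over all of them at a threshold of 0.05. The main fit was tested on simulated data, and the alternative fits were not. Probes of 1 gene were compared by exact permutation. The members and lists were chosen with earlier results of these data known. Apart from the members, values are given for genes among the 4 with the smallest p of a list, or in the gate and satellite cell lists, and for neighbours of Cav1; other probes of such genes that disagreed with the brightest were named after their values were seen. Other scalings, background correction, filters, weights, blocks and left-out samples were tried. Samples of the same replicate number were not treated as pairs, since their deviations from the group means had correlations of -0.0086, -0.087 and -0.13.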

Additional observations from a re-analysis of the deposited data

How the results depend on the processing

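The number of member probes lower in adult was 4 in the analysis above, and none was higher under any alternative. It was 2 with quantile normalization, 8 with median scaling, 2 with the percentile taken over probes above background on all arrays, 1 with cyclic loess, 7 with normexp, 2 with no filter, 7 with trend and robust fitting, 1 with the array position as a block and 0 in each of the 6 fits without 1 sample. With the replicate number as a block it was 0 in limma (6 had an unadjusted p below 0.05). Under that block 0 of all probes passed in either direction, and 18039 had an unadjusted p below 0.05. Of all probes, 3094 were lower and 8257 higher in adult. The lower count was 12209 with median scaling, 2012 with the percentile over probes above background on all arrays, 5536 with normexp, 6064 in the deposited value table, 5994 with trend and robust fitting, 1053 with the position block and 27 to 1421 without 1 sample. The higher count was 3271 with quantile normalization, 4815 with median scaling, 3486 with cyclic loess, 5482 with the position block and 361 to 8917 without 1 sample. Signs changed only for values that had not passed, and the cause was not tested. Cd34 A_51_P204740 read 0.046 with quantile normalization, 0.072 with cyclic loess and 0.047 in the deposited table. Cd34 A_55_P2009225 read 0.092, 0.171 and 0.098 there, and 0.083 with the percentile over probes above background on all arrays. Tek A_55_P2262136 read 0.043 with cyclic loess and 0.024 in the deposited table. With median scaling, Sdc4 A_52_P93467 read -0.379 and Sdc3 A_52_P282741 read -0.203; Sdc4 ran between -0.252 (without adult replicate 1) and 0.54 over the fits without 1 sample. Cav2 A_52_P55846 read -0.068 with quantile normalization and -0.028 in the deposited table. The second probe, Mki67 A_51_P253803, read -0.167 with quantile normalization, -0.473 with median scaling, -0.001 with cyclic loess and -0.035 in the deposited table, and ran between -0.431 and 0.483 over the fits without 1 sample. Of 995 recomputed values for probes outside the members, 311 fell short of a threshold passed above, mostly in the fits without 1 sample or with a block, 22 newly passed it and 9 changed sign. All 13 member probes were well above background on every array, so the background set no bound on them.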
